A study of Rattus norvegicus with 4 samples.

Results

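The intermediate filament genes of glia, neurons and muscle were examined in S16 cells, an immortalized Schwann cell line derived from rat peripheral nerve. The 10 members were taken by name from the 30708 genes listed for each library. No measured value entered the rule, but earlier results of these data were known when they were chosen. The members were Vim, Gfap and Des, Nes and Synm, the neurofilament genes Nefl, Nefm and Nefh, and the neuronal filament genes Prph and Ina. RNA-Seq profiles were available for unmodified cells at passage 9, the parental population from which the study made its Sox10-dependent enhancer deletions, and at passage 39. Cells of both passages were grown in DMEM with no genetic change and no added agent, and the labels describe their source as a myelinating Schwann cell. Each of the 2 populations was sequenced as 2 libraries that the labels call technical replicates 1 and 2, so each passage is by its label 1 population of 1 cell line and no test between passages can be made. Levels are RPKM, the reads of a gene per kilobase of its length and per 1000000 reads of the library, which allows genes of different length to be compared.

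Intermediate filaments are ropes of coiled-coil proteins that give a cell mechanical strength, and the mix of subunits differs between cell types. Type III proteins such as vimentin, GFAP, desmin and peripherin can polymerize alone, whereas nestin and synemin need a partner and the medium and heavy neurofilament chains need the light chain. In peripheral nerve, vimentin is found throughout the Schwann cell lineage, GFAP marks immature and non-myelinating Schwann cells, nestin marks progenitors, and the neurofilament triplet and peripherin are known chiefly from axons.

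The 4 libraries held between 34246093 and 41382234 reads, as recovered from the RPKM values. These totals exceed the depth that the methods state per cell line, a mismatch not resolved here. A factor shared by all reads of a library would not be seen, and one shared by all reads of a gene can go unseen. Read counts, counting intervals and chi-squares below rest on them. They paired by their replicate number and not by passage. For the 11025 genes that averaged 1 RPKM or more, called tested genes here, the standard deviation of the log2(RPKM + 1) difference was 0.08 in both comparisons of passage 39 with passage 9 at the same number, against 0.34 and 0.33 between the replicates of passage 9 and of passage 39. The replicates of 1 population differed at least 2-fold in 132 genes at passage 9 and in 121 at passage 39. Across passages at the same number, 1 gene did so in each comparison. The reads of the tested genes differed between passages at the same number by a chi-square of 1.15 and 1.41 per degree of freedom, where sampling noise alone gives 1, against 77.2 and 74.2 between the replicates of a passage. Libraries of the same number thus lay near sampling noise and libraries labelled as technical replicates did not. Passage and replicate are used below as the labels give them, and every member is described in both directions. Whether the passages or the numbers mark the separate cell populations was not tested, and each comparison below rests on these labels. Intervals below are 95% Clopper-Pearson intervals for levels and 95% exact conditional binomial intervals for ratios. They cover counting error only, since the reads carry no molecular identifiers.

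The promoters of Vim and Gfap are shown because Vim was the most abundant member in these cells and Gfap is the classical glial member, present here at a far lower level. Each line gives the 100 bases before the start of the gene, from RefSeq on the GRCr8 assembly, at chr17:81577161-81577260 on the plus strand for Vim and at chr10:88361662-88361761 on the minus strand for Gfap. Both stretches lie outside the annotated models of their gene. Capitals mark the TATA box letters TATAAA.
Vim: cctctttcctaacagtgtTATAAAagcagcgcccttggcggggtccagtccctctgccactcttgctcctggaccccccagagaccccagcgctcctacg
Gfap: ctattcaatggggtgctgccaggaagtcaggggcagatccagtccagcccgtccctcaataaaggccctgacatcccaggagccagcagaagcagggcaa
The letters TATAAA, sought on both strands from 250 bases before to 50 after the start, were present for Vim and Prph among the 7 members with a promoter entry, and in 14.2% of all 33469 promoters. The Sp1-type box GGGCGG was present for Vim, Nes, Prph, Ina and Des, and in 33.1% of all promoters. ACAAAG, one of several short forms that Sox proteins can bind, was found in none of the 7 windows and in 18.8% of all promoters, and the other forms were not sought. Such matches describe letters in the window and do not show binding.

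The members ran from near the top of the range of expression down to the detection limit. Vim was the third most abundant of all listed genes, with a mean of 2602 ± 18.2 RPKM (SD between the 2 passage means), while Nefh was listed at 0 in 3 of 4 libraries. In order of mean level came Vim, Nefl, Nefm, Nes, Gfap, Synm and Prph, all at 1 RPKM or more, followed by Des, Ina and Nefh at a few reads or none. Vim was 27.7-fold above Nefl, the next in order, and Nefl was 3.14-fold above Nefm. The ranges of Nes and Gfap over the 4 libraries overlapped, as did those of Des and Ina and of Ina and Nefh, so these neighbours cannot be ordered. All other neighbours had ranges that did not overlap.

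**Figure D1:**
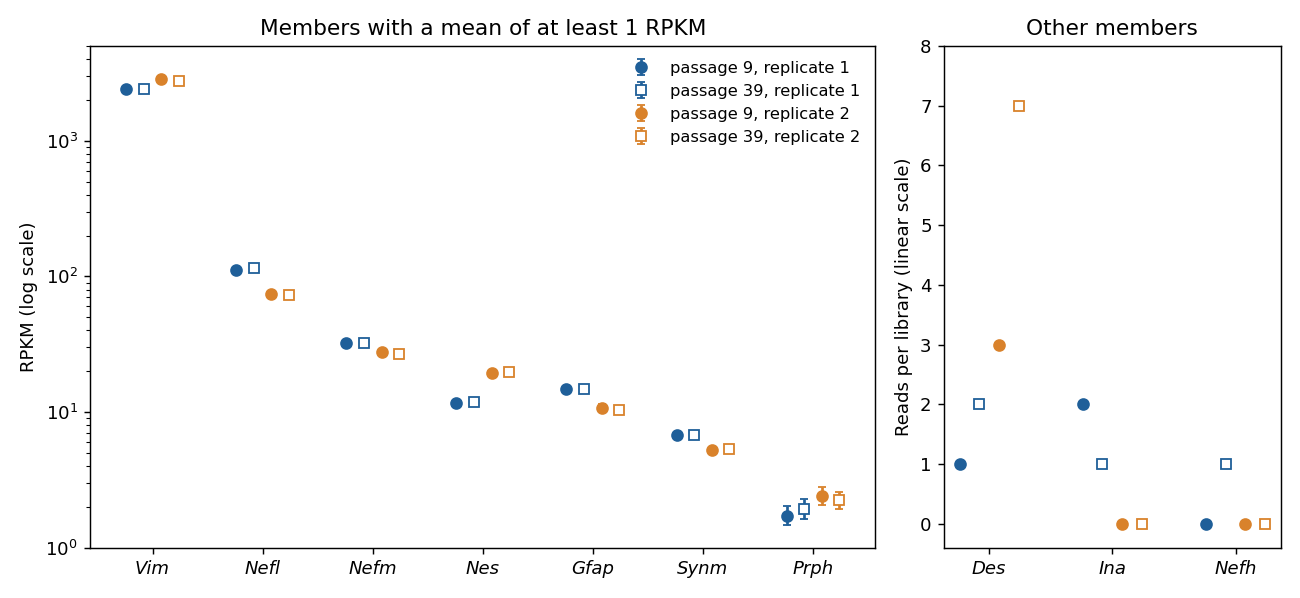
Left, level in RPKM on a logarithmic axis for the 7 intermediate filament genes at a mean of 1 RPKM or more. Points are the 4 libraries and bars are 95% counting intervals. Right, reads per library on a linear axis for Des, Ina and Nefh, without intervals. Vim lies at 2387 to 2842 RPKM and 6 genes lie between 1.72 and 116 RPKM. Des, Ina and Nefh have 7 reads or fewer per library.

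Vim, which encodes vimentin, the filament protein of most mesenchymal cells and of Schwann cells, stood at 2387 and 2842 RPKM in replicates 1 and 2 of passage 9 and at 2403 and 2775 RPKM in those of passage 39. It drew between 147784 and 204751 reads, which is 0.429% to 0.510% of all reads in a library. Vim was thus higher in both second replicates, and the passages differed by less than the replicates. The ratio of replicate 2 to replicate 1 was 1.19 (interval 1.18 to 1.20) at passage 9 and 1.15 (1.15 to 1.16) at passage 39. The genes nearest to Vim over the 4 libraries, by Euclidean distance of their log2(RPKM + 1) values, were Sparc, which encodes a secreted matrix-binding glycoprotein, at 0.18, the uncharacterized LOC102555854 at 0.43, and Tmsb4x, which encodes an actin-sequestering peptide, at 0.68.

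Gfap, the glial member, was detected at a low level. Its values were 14.9 and 10.7 RPKM at passage 9, against 14.9 and 10.4 at passage 39, from 1012 to 1653 reads. Both first replicates were above both second replicates. The counting intervals at passage 9, 14.2 to 15.6 and 10.1 to 11.4 RPKM, did not meet. The ratio of replicate 2 to replicate 1 was 0.722 (0.667 to 0.781) at passage 9 and 0.697 (0.644 to 0.755) at passage 39. Within each library Vim exceeded Gfap by a factor of 161 to 268. Gfap ranked at place 5034 of the listed genes by mean level.

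Nes, which encodes nestin, the large filament protein of neural and Schwann cell progenitors, showed the opposite pattern. It was measured at 11.6 and 19.4 RPKM at passage 9, against 11.9 and 19.6 at passage 39, over a gene model of 6274 bases. Both second replicates were above both first replicates, by a ratio of 1.67 (1.60 to 1.75) at passage 9 and 1.64 (1.57 to 1.72) at passage 39. The order of Nes and Gfap depended on the library. Gfap was 1.28 and 1.25 times Nes in the first replicates and 0.553 and 0.529 times Nes in the second.

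Synm encodes synemin, a large protein that joins vimentin or desmin filaments and links them to the cell cortex. It was found at 6.78 and 5.22 RPKM at passage 9, against 6.77 and 5.33 at passage 39. The first replicates were again the higher ones, as for Gfap, with ratios of replicate 2 to replicate 1 of 0.771 (0.720 to 0.825) and 0.787 (0.736 to 0.842). The ratio of Synm to Gfap within a library stayed between 0.455 and 0.514.

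The neurofilament triplet was split. Nefl, the light chain on which assembly depends, was the second most abundant member at 112 and 74.6 RPKM at passage 9, against 116 and 72.7 at passage 39, from 5301 to 9416 reads. Nefm, the medium chain, stood at 32.1 and 27.8 RPKM at passage 9, against 32.5 and 26.9 at passage 39. Both were higher in the first replicates, Nefl by more than Nefm. The ratio of replicate 2 to replicate 1 was 0.664 (0.642 to 0.687) and 0.627 (0.607 to 0.649) for Nefl at the 2 passages, and 0.865 (0.824 to 0.908) and 0.827 (0.787 to 0.868) for Nefm. Nefl exceeded Nefm 3.50-fold and 3.56-fold in the first replicates and 2.68-fold and 2.70-fold in the second. Nefh, the heavy chain, was listed at 0 in both libraries of passage 9 and in replicate 2 of passage 39, and at 0.00758 RPKM, a single read, in replicate 1 of passage 39. A count of 0 allows up to 3 reads, or 0.0188 to 0.0222 RPKM for Nefh in these 3 libraries, so at this depth such levels, the single read included, cannot be told from 0.

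The remaining neuronal members were low or at the detection limit. Prph, which encodes the peripherin of sensory, motor and autonomic neurons, was measured at 1.72 and 2.41 RPKM at passage 9, against 1.94 and 2.25 at passage 39, from 137 to 190 reads. The counting intervals at passage 9, 1.46 to 2.03 and 2.06 to 2.79 RPKM, were apart, but those at passage 39, 1.63 to 2.30 and 1.94 to 2.59 RPKM, overlapped. The ratio of replicate 2 to replicate 1 was 1.40 (1.11 to 1.75) at passage 9 and 1.16 (0.923 to 1.45) at passage 39, an interval that holds 1. Ina, which encodes the alpha-internexin of central neurons, had 2 reads in replicate 1 of passage 9, 1 read in replicate 1 of passage 39 and none in the second replicates. The limit for Ina was 0.0326 to 0.0394 RPKM.

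Des, which encodes the desmin of muscle, had 1 and 3 reads at passage 9 and 2 and 7 reads at passage 39, or 0.0111 to 0.0786 RPKM. The ratio of replicate 2 to replicate 1 was 3.54 (0.284 to 186) at passage 9 and 2.92 (0.556 to 28.8) at passage 39. Both intervals hold 1, so no difference in Des between replicates was detectable at this depth. Of the partners with which synemin is known to assemble, vimentin was thus abundant at the RNA level and desmin was at the detection limit.

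The passage comparison sets the older against the younger culture of the unmodified line, as labelled. Among the 7 members at 1 RPKM or more, 0 differed 2-fold between the means of passage 39 and passage 9. Over all 11025 genes 1 did, or 0.00907%. The differences of passage 39 minus passage 9 on the log2(RPKM + 1) scale ran from -0.019 for Gfap to 0.022 for Nes, with 0.012 for Nefl, 0.013 for Prph, 0.0092 for Synm, -0.011 for Nefm and -0.014 for Vim. The median of the members was 0.0092 and that of all tested genes -0.0021. None of the 7 had its passages apart in all libraries, a separation found for 6.21% of tested genes. With the number held fixed, 12 of 14 ratios of passage 39 to passage 9 had a counting interval that holds 1. The exceptions were Vim at replicate 2, at 0.976 (0.970 to 0.983), and Nefl at replicate 1, at 1.03 (1.00 to 1.06), whose lower bound lies just above 1. The share of such intervals over all tested genes was not counted. Reads of all tested genes lay near sampling noise in the same comparisons, with chi-squares of 1.15 and 1.41 per degree of freedom.

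**Figure D2:**
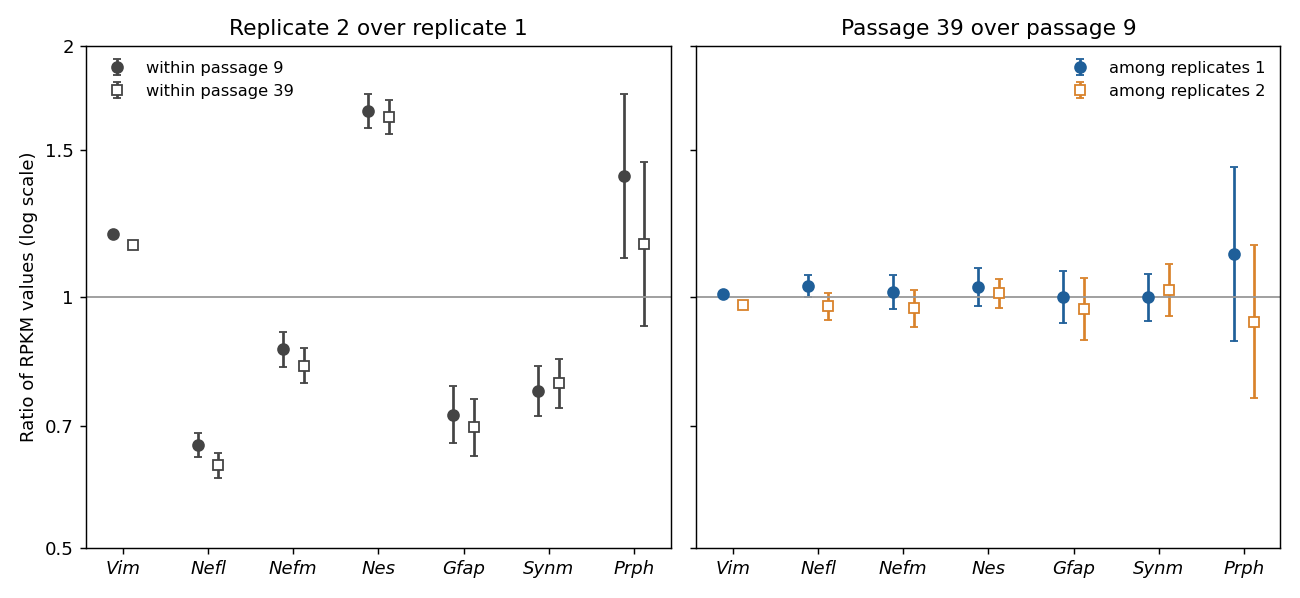
Ratios of RPKM between libraries for the 7 members at 1 RPKM or more, on a logarithmic axis with 95% counting intervals as bars, between replicates of each passage and between passages at each replicate number. Between replicates, 13 of 14 intervals leave out 1, and between passages 12 of 14 hold it. The share of such intervals over all tested genes was not counted. For the reads of all tested genes the chi-square per degree of freedom was 77.2 and 74.2 between replicates. Between passages it was 1.15 and 1.41, so the pattern is not particular to the members.

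The differences between the replicate numbers were larger and had the same direction at both passages for each of the 7 members. Nes at 0.68, Prph at 0.23 and Vim at 0.23 were higher in the second replicates on the log2(RPKM + 1) scale, and Nefl at -0.62, Gfap at -0.46, Synm at -0.31 and Nefm at -0.23 were lower. No member reached 2-fold, a size found for 1.09% of tested genes, 40 higher and 80 lower in the second replicates. That split became 53 and 189 when each library was rescaled to the same RPKM sum, and 29 and 112 under median-ratio scaling. All 7 had first and second replicates that did not overlap, but 87.7% of tested genes did too, so that this separation is near the background of the whole table. By size, 3.70% of tested genes lay at least as far from 0 as Nes, 4.93% as far as Nefl and 12.9% as far as Gfap. For Synm, Nefm, Prph and Vim the share was between 31.6% and 45.4%.

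**Figure D3:**
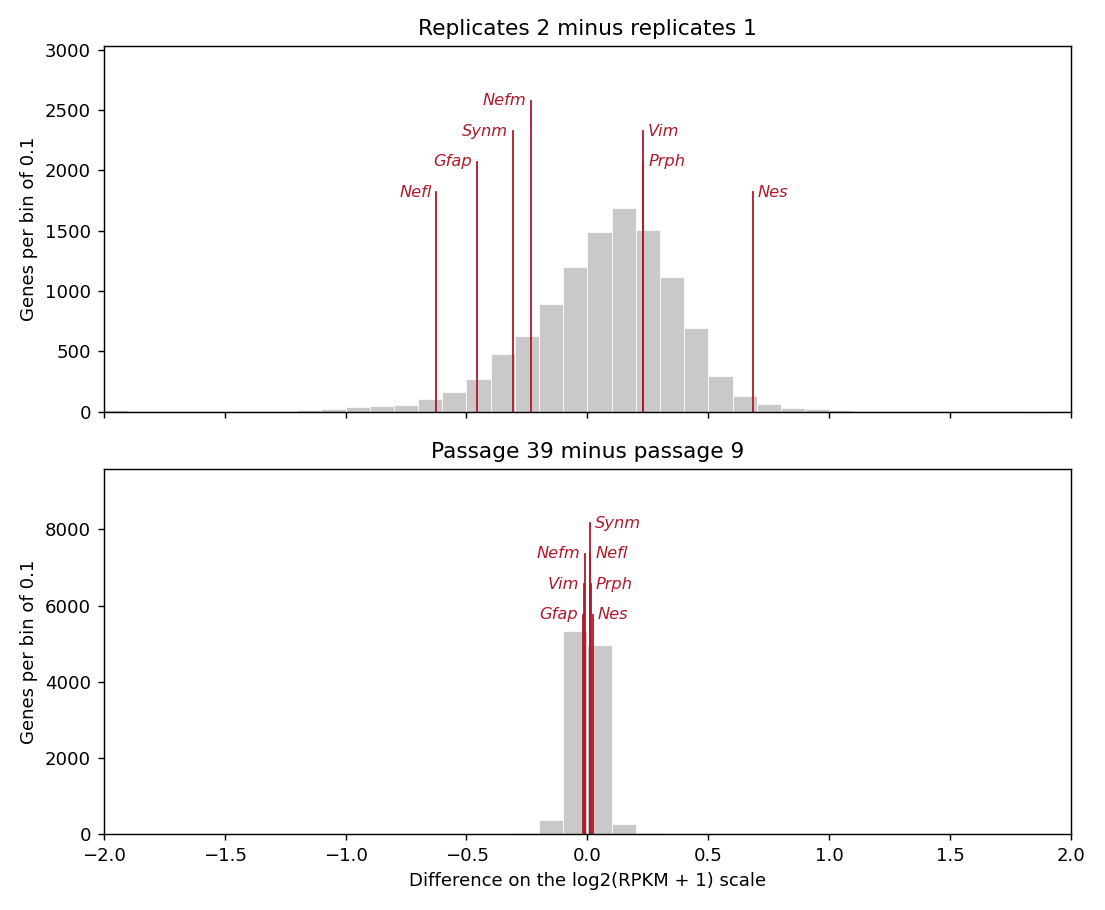
Distribution of the log2(RPKM + 1) differences of the 11025 tested genes in bins of 0.1, between replicate numbers (upper panel) and between passages (lower panel), with the 7 members at 1 RPKM or more as red lines. Between numbers Nefl at -0.62 and Nes at 0.68 lie in the outer parts of the distribution, and between passages all 7 members lie within 0.022 of 0.

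The whole table was shifted between numbers, with a median difference of 0.10 and with 7070 genes higher against 3955 lower in the second replicates. Rescaling to equal RPKM sums moved that median by -0.13 and median-ratio scaling by -0.077. Relative to the median of tested genes, the members stood at 0.58 for Nes, 0.13 for Prph and Vim, -0.34 for Nefm, -0.41 for Synm, -0.56 for Gfap and -0.73 for Nefl. The difference also varied with gene length, from a median of 0.26 in the shortest of 5 length classes to -0.091 in the longest. These classes held nearly equal numbers of genes. Set against the 200 tested genes nearest in length, a comparison added after the values were seen, Nes stood at 0.76, Nefl at -0.81, Gfap at -0.58, Nefm at -0.36 and Synm at -0.18. On that scale Vim at 0.044 and Prph at 0.067 lay close to genes of their length. Nes, whose gene model is among the longest of the members, thus stood opposite to the length trend, and the part of length in these differences was not tested further.

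The make-up of the filament RNA differed between numbers in the same way at both passages. Vim supplied 93.0% and 92.9% of the summed RPKM of the 10 members in the first replicates and 95.3% in each of the second. Without Vim the sum was 179 and 184 RPKM in the first replicates and 140 and 137 RPKM in the second. Nefl supplied 62.6% and 63.0% of this remainder in the first replicates and 53.2% and 53.0% in the second. Nes supplied 6.47% and 6.48% in the first replicates and 13.8% and 14.3% in the second. Nefm, between 17.7% and 19.8%, and Gfap, between 7.55% and 8.28%, kept nearly equal shares in the 4 libraries.

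**Figure D4:**
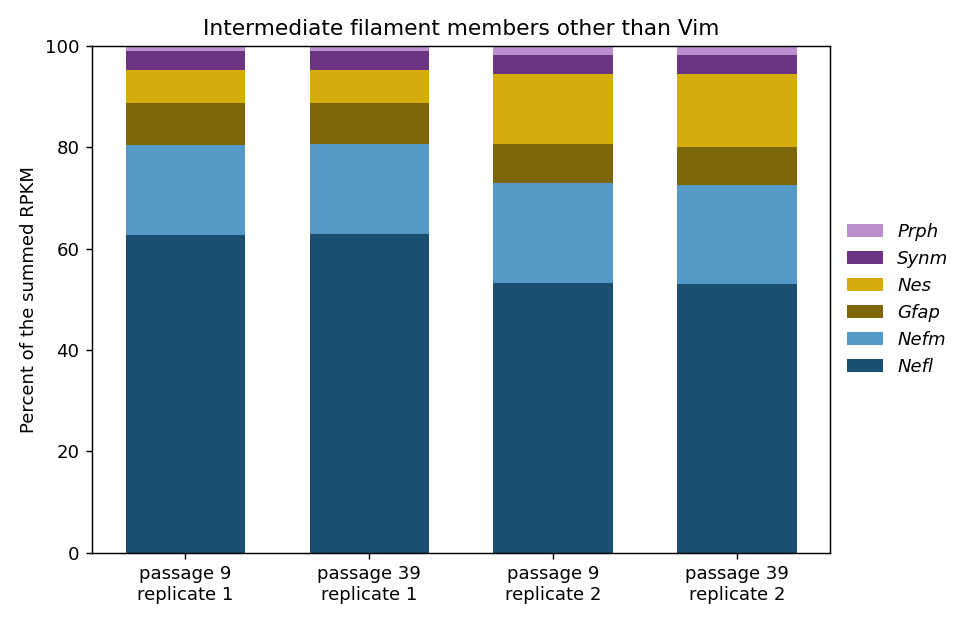
Share of each member in the summed RPKM of the members other than Vim, as a stacked bar in percent for each of the 4 libraries. The share of Nefl is 62.6% and 63.0% in the first replicates and 53.2% and 53.0% in the second, and that of Nes 6.47% and 6.48% against 13.8% and 14.3%.

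Other genes of the filament system were measured for comparison. The nuclear lamins, intermediate filaments of the nuclear envelope, were all expressed, with 0 of 3 at 2-fold between numbers. Lmna stood at 246 and 339 RPKM at passage 9, against 253 and 328 at passage 39, whereas Lmnb1 and Lmnb2 had means of 43.2 and 37.4 RPKM. Of the 47 keratins, the filament proteins of epithelia, 2 had a mean of 1 RPKM or more and 24 were listed at 0 in every library. The 2 were Krt14, with a mean of 4.44 RPKM, and Krt8, at 1.46 and 2.81 RPKM at passage 9, against 1.52 and 2.66 at passage 39. Of 5 further members of the wider family, 3 reached 1 RPKM, namely Iffo1, Iffo2 and Sync with means of 10.8, 8.36 and 4.83 RPKM.

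Among 7 plakins and linkers, which tie filaments to other structures, 3 were at 1 RPKM or more and none differed 2-fold. Plec, the plectin gene, had a mean of 58.6 RPKM. Dst, which encodes dystonin, stood at 34.6 and 18.6 RPKM at passage 9, against 34.6 and 18.4 at passage 39, a difference between numbers of -0.87 on the log2(RPKM + 1) scale. All 6 chaperones and turnover factors were expressed, and 1 of them was at least 2-fold higher in the second replicates, as were 0.363% of all tested genes. This was Hspb1, a small heat shock protein gene, at 78.3 and 182 RPKM at passage 9, against 79.4 and 174 at passage 39. Cryab, which encodes the filament chaperone alpha-B-crystallin, was the most abundant of them at 986 and 1623 RPKM at passage 9, against 978 and 1566 at passage 39. Of 8 kinase and phosphatase subunit genes that act on filament proteins, 7 were at 1 RPKM or more and 0 differed 2-fold, with Cdk1 at a mean of 153 RPKM, Ppp2r1a at 129 RPKM and Plk1 at 72.2 RPKM. No gene of these lists differed 2-fold between passages. Between numbers the median difference of the genes at 1 RPKM or more was 0.25 for the chaperones and turnover factors, -0.11 for the plakins and linkers, -0.14 for the lamins, 0.30 for the keratins, -0.092 for the further family members and -0.023 for the kinases and phosphatase subunits, beside 0.10 for all tested genes and -0.23 for the filament genes themselves.

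The label of a Schwann cell was checked with marker genes. Of 10 Schwann cell markers 9 had a mean of 1 RPKM or more, with Pmp22 at 1255 and Sox10 at 176 RPKM, and the exception was Cdh19, at 1.77 and 1.67 RPKM in the first replicates and 0.133 and 0.175 RPKM in the second. Their summed level was 4646 and 4651 RPKM in the first replicates and 3768 to 3818 RPKM in the second, and S100b was at least 2-fold lower in the second replicates, as were 0.726% of all tested genes. Nefl, Nefm, Gfap and Synm were lower in the same libraries, and the part of these markers in the result was not tested. In bulk RNA, fewer cells of a type and less RNA per cell cannot be told apart.

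Since the neurofilament genes are known from neurons, 10 neuronal markers were examined beside them. Elavl4, Syt1 and Stmn2 were listed at 0 in all libraries, and Tubb3, a tubulin gene also active in dividing cells, was the only one at 1 RPKM or more, with a mean of 56.2 RPKM. The other 6 had at most 33 reads in a library. The summed level was 49.7 to 49.9 RPKM in the first replicates and 62.2 to 63.6 RPKM in the second. Nearly all of it was Tubb3, at 49.8 and 49.6 RPKM in the first replicates and 62.1 and 63.5 RPKM in the second. The sum therefore describes that gene and not the neuronal markers as a set. Beside Gfap, none of 5 astrocyte markers reached 1 RPKM in any library, Aqp4 was listed at 0, and the sum was 0.163 to 0.207 RPKM in the first and 0.233 to 0.256 RPKM in the second replicates. Beside Des, none of 5 skeletal muscle markers had a mean of 1 RPKM and Myog was listed at 0. Myod1, a muscle-determining factor, was at 0.261 and 0.165 RPKM in the first replicates but at 1.36 and 1.56 RPKM in the second. The skeletal muscle sum was 0.551 to 0.609 RPKM in the first and 2.25 to 2.46 RPKM in the second replicates. Of 6 smooth muscle and pericyte markers 3 were expressed and Rgs5 was listed at 0. The sum over the 6 was 1000 to 1013 RPKM in the first and 1757 to 1773 RPKM in the second replicates. Nearly all of it was Acta2, the smooth muscle actin gene, between 444 and 986 RPKM, and Tagln, between 532 and 764 RPKM. Acta2 was at least 2-fold higher in the second replicates, as were 0.363% of all tested genes. Pdgfrb, the remaining expressed marker, was lower there, at 23.9 RPKM in both first and 21.5 and 21.4 RPKM in the second replicates. Beside Vim, 2 of 5 fibroblast markers were expressed, Col1a1 with a mean of 3588 RPKM and Pdgfra with 5.35 RPKM. Col1a2, Dcn and Lum had means of 0.339, 0.0033 and 0.0534 RPKM. The fibroblast sum was 3349 to 3364 RPKM in the first and 3778 to 3883 RPKM in the second replicates. Nearly all of it was Col1a1, so it describes that gene and not the fibroblast markers as a set. The part of these markers in the differences of the members was not tested.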

How the data were processed

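Total RNA from confluent S16 flasks was made into poly(A) libraries and sequenced as 50-base single reads. According to the methods and the labels, the authors mapped reads to the rat genome build rn5 with STAR, kept unique alignments and used HTSeq, ignoring strand, to count reads over genes, so that antisense reads are not separated. The deposited values are RPKM. How counts became RPKM is not given in the sources used here. The 10 members and the gene lists were chosen with earlier results of these data known.

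Reads were recovered from the RPKM values, which are whole reads divided by gene length and library total. Whole reads and lengths were assigned to all 20333 genes above 0. The relative tolerance was 1e-12 on ratios of reads, and the tolerance on lengths was 0.0001 bases. The recovered totals divided 96.3% of 11472 tested products. Whole reads were partly built in. Genes seen in 1 library started from 1 read, and reads were multiplied until the length was whole. A factor shared by all reads of a gene can go unseen. The shortest length recovered for a tested gene was 5 bases, and comparisons by length rest on these lengths. The step was checked on data simulated from the recovered totals, lengths and reads. Such a check cannot show that those totals, lengths and reads are themselves right. RPKM values were averaged within a group first, and differences were taken between the log2(RPKM + 1) values of these means. This was done for 11025 genes averaging 1 RPKM or more, with a fold threshold of 2. No test was made, since each passage is 1 population. SDs between passage means describe spread that may be technical. Named genes were all members, the genes nearest to Vim and members of fixed lists. Promoters came from RefSeq (GRCr8), with entries for 7 of 10 members and not for Nefl, Nefm and Nefh, and coordinates were not mixed with rn5. Alternatives covered scaling, pseudocount, minimum level, left-out libraries and gene length. The software was scipy 1.17.1, matplotlib 3.10.9, pandas 2.3.3 and numpy 2.4.6 under Python 3.11.15. Some genes of the lists are not reported here.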

Additional observations from a re-analysis of the deposited data

Results flagged for a closer look

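Nefh was the only one of the 10 members in which 1 of the 4 libraries stood apart from the others by the gap to its nearest neighbour, which took up 1.00 of the whole range. This follows from 1 read in replicate 1 of passage 39 and none in the other libraries, a level below the 3 reads that a count of 0 allows. By chance about 1 in 20 such groups is marked, and 10 members were examined. For a gene with 1 read in 4 libraries the value of 1.00 is fixed in advance, so that rate does not describe Nefh.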

How the results depend on the processing

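No paired test was possible because no result comes from a test, and comparisons within a number or a passage are given as values. The count of members at least 2-fold apart was 0 between passages and 0 between numbers under every alternative run, and 7 members stayed at 1 RPKM or more except with a minimum of 5 RPKM, which Prph missed and 6 passed. Over all genes, the count at least 2-fold apart between numbers was 120 and became 251 with a pseudocount of 0.1 RPKM and 242 when each library was rescaled to sum to 1000000. Between passages the count of 1 became 0 with a minimum mean of 5 RPKM and 9 to 27 when 1 library was left out, which leaves the numbers unbalanced between passages: 25 without replicate 1 and 9 without replicate 2 of passage 9, 27 without replicate 1 and 13 without replicate 2 of passage 39. The differences between numbers kept their sign in 10 of 10 alternatives for each of the 7 members at 1 RPKM or more, over 0.57 to 0.76 for Nes, -0.81 to -0.58 for Nefl, -0.63 to -0.44 for Gfap and 0.044 to 0.25 for Vim. The differences between passages changed sign when a library was left out for each of these 7, and for all but Nes also when the passages were compared within 1 of the numbers, such as 0.0095 for Vim, -0.037 for Nefl and -0.070 for Prph. Depth limits Nefh, Ina and Des, whose levels rest on 7 reads or fewer per library.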
